A study of Homo sapiens with 6 samples.

Results

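ACTB, TUBA1B, MYH15, ACTA2, MYOCD and TUBB1 are 6 genes of the actin, tubulin and muscle programmes, found by gene name among the 2778 features of a count table from A375 cells, an established human melanoma line. Cells overexpressing CYGB, which encodes the haem-binding globin cytoglobin (CYGB-OE, n = 3 libraries), were compared with wildtype A375 cells (WT, n = 3 libraries). All cells were untreated and were grown in DMEM with fetal bovine serum and antibiotics. The labels name no empty-vector control, nor do they say whether the overexpressing cells were a pool or 1 clone. Separate cultures behind the replicates are not mentioned either, so the spread behind every p-value is that of the libraries and could be technical. The 6 genes were chosen with the difference between these groups known, so their values are given as a description with no test.

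Actins and tubulins build the filaments that give a cell its shape, and both are encoded by families of closely similar genes used in different tissues. ACTB (beta-actin) and TUBA1B (an alpha-tubulin) are made in nearly all cells and often serve as reference genes. ACTA2 encodes the actin of smooth muscle and of myofibroblasts, and MYH15 a myosin heavy chain of the sarcomeric family. MYOCD encodes myocardin, which switches on smooth muscle genes by acting with serum response factor (SRF), a transcription factor that binds CArG boxes. TUBB1 encodes the beta-tubulin of megakaryocytes and platelets.

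The table is a selection, since no log2 ratio of group means in it lay between -0.995 and 0.995. Column totals, 1533260 to 1897052 counts in CYGB-OE libraries and 2025159 to 2801576 in WT libraries, therefore are not library depths. Normalized counts are counts divided by a factor per library. The level between groups was set so that the empty band is centred on 0, and the factors ran from 0.896 to 1.10 in CYGB-OE and from 0.909 to 1.27 in WT. CYGB itself had 22518, 20740 and 26267 counts in CYGB-OE replicates 1 to 3, against 33, 47 and 37 in WT replicates 1 to 3. CYGB-OE replicate 1 stood apart from its group, with a median absolute log2 difference of 0.462 and 0.475 to replicates 2 and 3, against 0.215 between those and 0.177 to 0.186 among WT libraries. All 6 genes passed the filter on low counts and the groups did not overlap for any of them. Nothing is read from that count, since 98.3% of all features did not overlap and 99.8% of those tested passed an adjusted p of 0.05.

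The housekeeping genes were higher in CYGB-OE, the smooth muscle genes lower, and the other lineage-restricted genes higher. ACTB and TUBA1B were 2.49-fold and 2.21-fold higher by their group means. ACTA2 was 4.02-fold lower and MYOCD nearly absent in CYGB-OE. MYH15 was 4.07-fold higher and TUBB1 30.9-fold higher. The sizes of all these differences depend on the scaling between the groups.

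ACTB (ENSG00000075624, GRCh38 chromosome 7, 5527147 to 5563784, minus strand) had 90813, 85395 and 112752 counts in CYGB-OE replicates 1 to 3, against 33586, 53827 and 36500 in WT replicates 1 to 3. The groups were well separated, and CYGB-OE replicate 1 was at 97.9% of the mean of replicates 2 and 3 after normalization. The normalized count was 98232 ± 3745 in CYGB-OE and 39424 ± 2856 in WT (SD, n = 3 each), with a log2 fold change of 1.32 (SE 0.08). ACTB held 5.38% to 5.94% of all counts of the table in CYGB-OE libraries and 1.66% to 1.92% in WT libraries. Of 3097 windows of 100 bases in its coding transcripts, 3 also occur in the same direction in another annotated gene. Few reads of that length could therefore be shared with its pseudogenes.

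TUBA1B (ENSG00000123416, chromosome 12, 49127782 to 49131397, minus strand) had 50881, 40922 and 51717 counts in CYGB-OE replicates 1 to 3, against 19934, 28865 and 20491 in WT replicates 1 to 3. The WT libraries were close together, and the lowest CYGB-OE library was well above them. The normalized count was 48990 ± 4623 in CYGB-OE and 22171 ± 561 in WT (SD, n = 3 each), with a log2 fold change of 1.14 (SE 0.09). Of 2261 windows of 100 bases in its coding transcripts, 25.2% also occur in TUBA1C, TUBA1A or the pseudogene TUBAP2. The counts of TUBA1B are therefore uncertain where reads could belong to these copies.

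AC011603.2, an antisense transcript on the other strand, shares 36.6% of the exonic bases of TUBA1B. It had 518, 427 and 487 counts in CYGB-OE replicates 1 to 3, against 210, 275 and 206 in WT replicates 1 to 3. Its log2 fold change was 1.14 (SE 0.14), the same to 2 decimals as that of TUBA1B. The labels describe both directional and non-directional libraries and the strand setting of the counting is not stated, so reads of this pair cannot be told apart.

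TUBB1 (ENSG00000101162, chromosome 20, 59019254 to 59026654, plus strand) had 53, 105 and 130 counts in CYGB-OE replicates 1 to 3, against 4, 1 and 4 in WT replicates 1 to 3. Every CYGB-OE library was far above WT, and replicate 1 was at 48.0% of the mean of replicates 2 and 3. The normalized count was 97.3 ± 35.3 in CYGB-OE and 3.15 ± 2.04 in WT (SD, n = 3 each), with a log2 fold change of 5.00 (SE 0.53). Over summed counts, 288 in CYGB-OE against 9 in WT, the ratio was 34.0 (95% exact binomial interval 17.7 to 75.1, counting error only). None of its 100-base windows occurs, read in the same direction, in a transcript of another annotated gene. ATP5F1E, a subunit gene of ATP synthase that was not analysed here, covers 34.0% of the exonic bases of TUBB1 on the opposite strand. Reads over these shared bases cannot be told apart without strand information, so the counts of TUBB1 are uncertain there.

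The promoters of the tubulin pair differ in base composition, and both are shown because the gene pair contrasts a housekeeping with a lineage-restricted isoform. Capitals mark CG dinucleotides. The sequences run from 250 bases before to 50 bases after the start site in RefSeq, build GRCh38.p14, at chr12:49131346-49131645 (minus strand) for TUBA1B and chr20:59019179-59019478 (plus strand) for TUBB1.
TUBA1B: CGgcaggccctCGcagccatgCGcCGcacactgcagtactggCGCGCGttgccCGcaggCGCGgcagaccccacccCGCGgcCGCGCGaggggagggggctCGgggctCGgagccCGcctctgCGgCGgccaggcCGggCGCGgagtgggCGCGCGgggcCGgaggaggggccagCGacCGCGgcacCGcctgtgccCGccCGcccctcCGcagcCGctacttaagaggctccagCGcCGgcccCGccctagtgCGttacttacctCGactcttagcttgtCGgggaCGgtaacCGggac
TUBB1: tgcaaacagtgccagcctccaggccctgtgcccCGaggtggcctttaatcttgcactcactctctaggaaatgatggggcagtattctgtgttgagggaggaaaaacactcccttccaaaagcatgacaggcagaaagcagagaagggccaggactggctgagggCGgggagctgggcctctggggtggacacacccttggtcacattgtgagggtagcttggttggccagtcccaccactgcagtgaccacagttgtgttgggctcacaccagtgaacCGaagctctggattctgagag
The TUBA1B window held 43 CG dinucleotides, with a ratio of 0.967 to the number its C and G content predicts, above 88.4% of 35116 promoter windows of the same length. The TUBB1 window held 3, a ratio of 0.126, above 12.7% of windows. GC content was 77.0% for TUBA1B and 56.7% for TUBB1. The MYH15 window, at chr3:108510547-108510846 (minus strand), lies inside the annotated gene, whose 5′ end is at 108529322. It held 2 CG dinucleotides, with a ratio of 0.167.

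MYH15 (ENSG00000144821, chromosome 3, 108380369 to 108529322, minus strand) had 2623, 1952 and 2353 counts in CYGB-OE replicates 1 to 3, against 563, 707 and 538 in WT replicates 1 to 3. CYGB-OE replicate 1 was the highest after normalization, at 130% of the mean of replicates 2 and 3. The normalized count was 2372 ± 369 in CYGB-OE and 583 ± 31.8 in WT (SD, n = 3 each), with a log2 fold change of 2.02 (SE 0.13). It was the only member in the table of a list of 14 myosin heavy chain genes that also holds the nonmuscle chains MYH9, MYH10 and MYH14 and the smooth muscle chain MYH11. No 100-base window of its coding transcript occurs, read in the same direction, in a transcript of another annotated gene.

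ACTA2 (ENSG00000107796, chromosome 10, 88935074 to 88991339, minus strand) had 118, 240 and 303 counts in CYGB-OE replicates 1 to 3, against 854, 1117 and 818 in WT replicates 1 to 3. All CYGB-OE libraries lay below WT, and replicate 1 was the lowest, at 46.3% of the mean of replicates 2 and 3. The normalized count was 223 ± 84.3 in CYGB-OE and 897 ± 37.0 in WT (SD, n = 3 each), with a log2 fold change of -2.01 (SE 0.27), or -1.72 without CYGB-OE replicate 1. With trimmed-mean (TMM) or DESeq2 size factors taken over the whole table the log2 fold change was -0.81. In RNA from whole cultures, fewer expressing cells and less RNA per cell cannot be told apart.

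MYOCD (ENSG00000141052, chromosome 17, 12665890 to 12768949, plus strand) had 1, 0 and 0 counts in CYGB-OE replicates 1 to 3, against 17, 47 and 21 in WT replicates 1 to 3. WT replicate 2 was the highest also after normalization. The normalized count was 0.36 ± 0.62 in CYGB-OE and 26.1 ± 9.78 in WT (SD, n = 3 each). Over summed counts WT exceeded CYGB-OE 80.0-fold (95% exact binomial interval 14.0 to 3198). That ratio rests on 1 count in CYGB-OE replicate 1, without which MYOCD was at least 18.2-fold lower against a floor of 3 counts over the group. Without CYGB-OE replicate 3 the interval of the ratio was 8.74 to 1998. These ratios, intervals and the floor hold only for the scaling centred on the empty band. The fitted log2 fold change was -5.84 under that scaling and -4.81 under TMM over the table, so they would be smaller under TMM. An antisense transcript that was not analysed here covers 7.93% of the exonic bases of MYOCD.

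**Figure D1:**
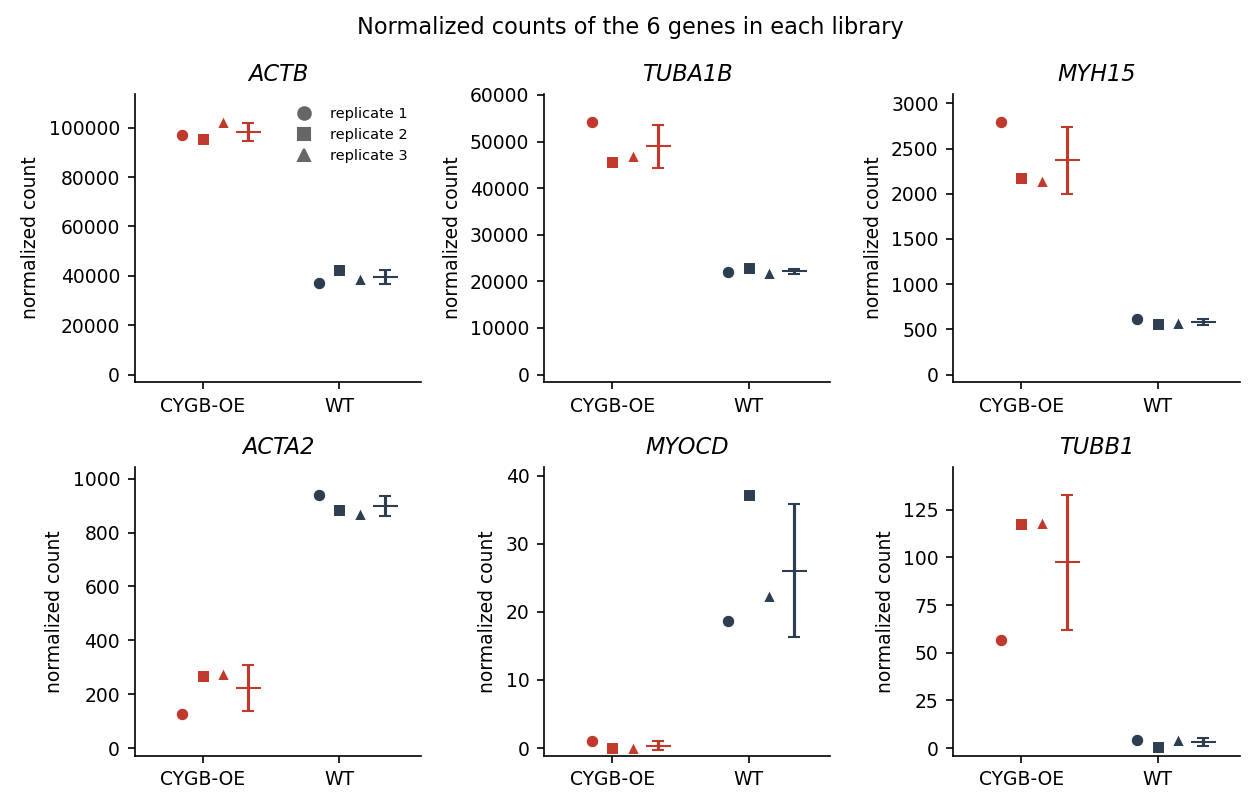
Normalized counts of the 6 genes (vertical axes, linear) in each CYGB-OE and WT library, with 1 marker shape per replicate number and the mean ± SD beside them (n = 3 libraries each). The groups do not overlap in any panel, and CYGB-OE replicate 1 is the lowest of its group for ACTA2 and TUBB1 and the highest for MYH15 and TUBA1B.

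The promoter of ACTA2 is shown because ACTA2 and MYOCD were both lower and myocardin is known to act through CArG boxes. Whether MYOCD had a part in the ACTA2 difference was not tested. The RefSeq window of the downstream start site runs from 250 bases before to 50 bases after it, at chr10:88952724-88953023 (GRCh38.p14, minus strand). Capitals mark 2 elements that match a CArG box but for 1 C or G in its core of A and T bases.
ACTA2: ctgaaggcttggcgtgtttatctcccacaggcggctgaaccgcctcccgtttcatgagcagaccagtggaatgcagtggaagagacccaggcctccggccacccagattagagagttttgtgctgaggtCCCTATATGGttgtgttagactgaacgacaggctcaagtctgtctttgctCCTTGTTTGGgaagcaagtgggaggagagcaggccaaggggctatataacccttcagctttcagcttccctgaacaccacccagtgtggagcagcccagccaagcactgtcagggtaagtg
The elements begin at positions -121 and -71 from the start site. Such an element, searched on both strands, occurred in 6.94% of 35116 promoter windows of the same length, and a full CArG box in 1.29%. The window of the upstream ACTA2 start site, at chr10:88991288-88991587, and the windows given above for TUBA1B, TUBB1 and MYH15 held neither. A match is a description of the letters and does not show binding.

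ACTA2 shares its locus with genes that went the other way. ACTA2-AS1, an antisense RNA on the opposite strand, had 26, 13 and 12 counts in CYGB-OE replicates 1 to 3, against 5, 9 and 3 in WT replicates 1 to 3. It was highest in CYGB-OE replicate 1, which had the least ACTA2 but also stood apart from its group over the whole table. A link between the RNAs was not tested. The log2 fold change of ACTA2-AS1 was 1.67 (SE 0.48), and it covers 17.3% of the exonic bases of ACTA2.

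STAMBPL1, a deubiquitinase gene whose body spans part of ACTA2 on the opposite strand without sharing exonic bases, had a log2 fold change of 1.18 (SE 0.11). Its normalized count was 1873 ± 158 in CYGB-OE and 824 ± 27.6 in WT (SD, n = 3 each). ANKRD22, 83256 bases beyond the 3′ end of ACTA2, had 31, 37 and 51 counts in CYGB-OE libraries, against 2, 12 and 3 in WT libraries. Its log2 fold change was 2.89, or 3.84 without WT replicate 2. Of the 9 annotated genes within 100 kb of ACTA2, these 3 were in the table. All 3 rose, beside 28.3% of all features tested (edgeR quasi-likelihood test, adjusted p = 0.00825, 1.74e-05 and 0.000309 for ACTA2-AS1, STAMBPL1 and ANKRD22). The call of ACTA2-AS1 was lost, at an adjusted p of 0.197, when the adjustment ran over all annotated genes. FAS, which overlaps the 5′ end of ACTA2, was not analysed here. Without strand information reads of ACTA2 and ACTA2-AS1 over their shared exons cannot be told apart.

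**Figure D2:**
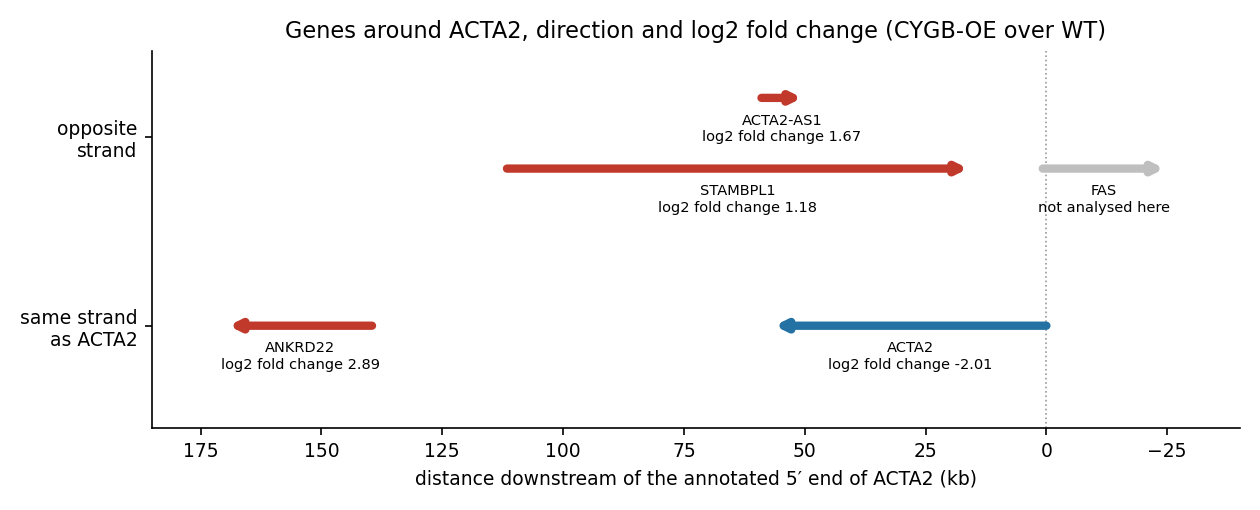
Genes within 100 kb of ACTA2 that were in the table or overlap it, placed by distance in kb from the annotated 5′ end of ACTA2 with arrows in the direction of transcription. Red arrows are genes higher in CYGB-OE, the blue arrow is ACTA2 with a log2 fold change of -2.01, and the grey arrow is FAS, which was not analysed here.

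Near the other genes, TUBB1 had 3 of 8 neighbours within 100 kb in the table. CTSZ, which encodes the lysosomal protease cathepsin Z, had 19333 ± 6009 normalized counts in CYGB-OE and 6650 ± 314 in WT (SD, n = 3 each), and its log2 fold change was 1.54 (SE 0.23). PRELID3B had a log2 fold change of 1.06 (SE 0.13), and ZNF831, a zinc finger gene, had 11, 22 and 49 counts in CYGB-OE libraries, against 8, 1 and 3 in WT libraries. Like TUBB1, all 3 had their lowest CYGB-OE value in replicate 1, the library that stood apart from its group over the whole table. TUBA1A lies 53399 bases from TUBA1B. The microRNA gene MIR589 was the only feature near ACTB, with 20, 7 and 10 counts in CYGB-OE libraries, against 3 in each WT library. The pseudogene AC069499.1 was the only feature near MYH15, with 36, 25 and 31 counts in CYGB-OE libraries, against 12, 9 and 7 in WT libraries.

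Per kb of exon, which allows levels of different genes to be set side by side, the order of the 6 genes differed between the groups. In CYGB-OE it ran from ACTB at 27915 ± 1064 normalized counts per kb through TUBA1B at 13707 ± 1293, MYH15 at 308 ± 48.0, ACTA2 at 75.0 ± 28.3 and TUBB1 at 27.8 ± 10.1 to MYOCD at 0.040 ± 0.069 (SD, n = 3). In WT it ran from ACTB at 11203 ± 812 through TUBA1B at 6204 ± 157, ACTA2 at 301 ± 12.4, MYH15 at 75.8 ± 4.13 and MYOCD at 2.94 ± 1.10 to TUBB1 at 0.90 ± 0.58 (SD, n = 3). MYH15 and ACTA2 thus changed places, as did TUBB1 and MYOCD. No neighbours in either order overlapped in their library values. The lengths are unions of all annotated exons, so these levels are approximate where a cell uses few of them.

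**Figure D3:**
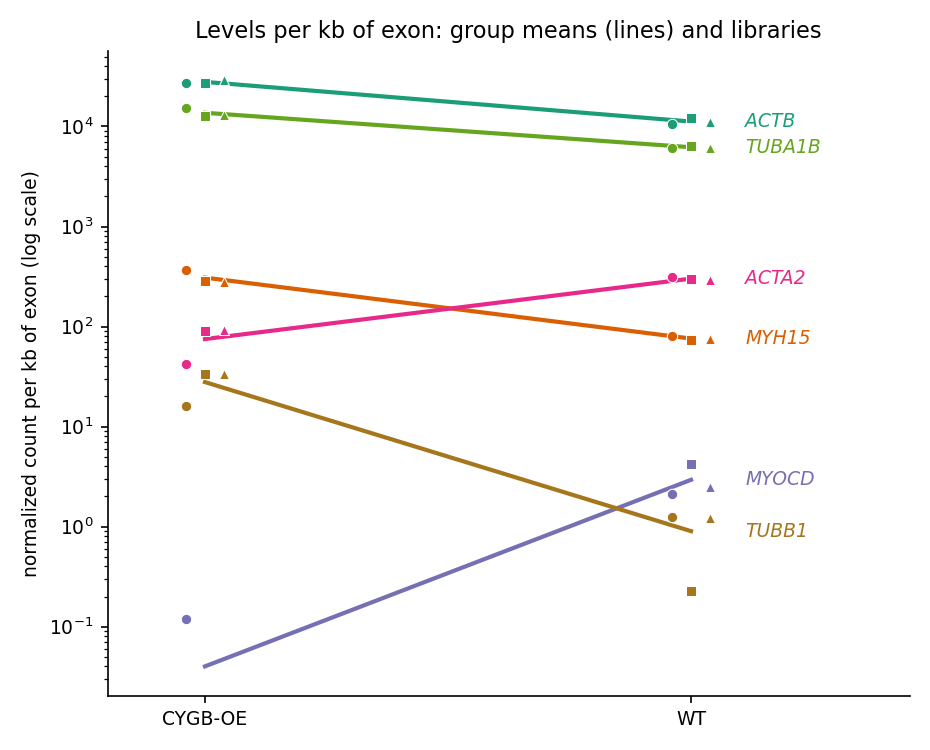
Normalized counts per kb of exon (log axis) for the 6 genes, with lines between the CYGB-OE and WT group means and markers for libraries, replicates 1 to 3 as circle, square and triangle. The lines of MYH15 and ACTA2 cross, as do those of TUBB1 and MYOCD, and the MYOCD values of CYGB-OE replicates 2 and 3 are 0 and not drawn.

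Ratios between genes counted in the same library do not depend on how the groups were scaled. There were 770, 356 and 372 ACTB counts per ACTA2 count in CYGB-OE replicates 1 to 3, against 39.3, 48.2 and 44.6 in WT replicates 1 to 3. The groups were far apart, with a difference of -3.41 (CYGB-OE minus WT) in the log2 ratio of ACTA2 to ACTB. There were 960, 390 and 398 TUBA1B counts per TUBB1 count in CYGB-OE replicates 1 to 3, against 4984, 28860 and 5123 in WT replicates 1 to 3. The log2 ratio of TUBB1 to TUBA1B was higher by 3.79 in CYGB-OE, or by 3.09 without WT replicate 2, where TUBB1 had 1 count.

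The ratio of the housekeeping genes differed little. The log2 ratio of TUBA1B to ACTB was -1.01 ± 0.15 in CYGB-OE and -0.83 ± 0.07 in WT (SD, n = 3 each), and the library values of the groups overlapped. That of MYH15 to ACTB was -5.38 ± 0.24 in CYGB-OE and -6.08 ± 0.18 in WT, without overlap. MYH15 was therefore higher relative to ACTB by 0.69 on the log2 scale.

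**Figure D4:**
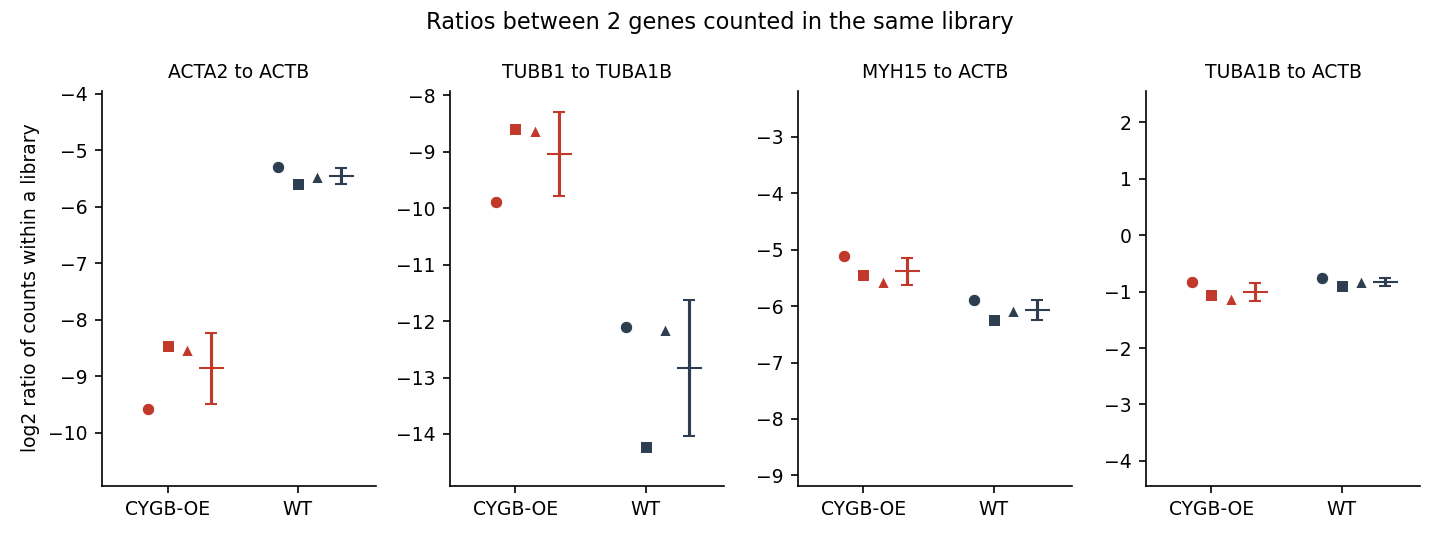
Log2 ratios of the counts of 2 genes within each library (vertical axes of equal span), CYGB-OE left and WT right, with the mean ± SD (n = 3 each). The difference, CYGB-OE minus WT, is -3.41 for ACTA2 to ACTB and 3.79 for TUBB1 to TUBA1B, while the groups overlap for TUBA1B to ACTB.

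The genes most like each member were sought by the smallest root mean square difference between log2 normalized counts centred over the 6 libraries. For ACTB they were GTF3C6, ZFP36L2 and ELL2, at 0.053, 0.063 and 0.073 log2 units. For TUBA1B they were ZNF326, MCM10 and the beta-tubulin TUBB4B, at 0.025, 0.031 and 0.036. For ACTA2 they were AC023043.1, LOXL4 and PALM, at 0.071, 0.087 and 0.093, each with its lowest value in CYGB-OE replicate 1. ACTA2 was lowest there too and these genes were picked for likeness to it, so the shared low value follows from the choice. For MYH15 they were DLEU2, RRS1-AS1 and HSPB8, at 0.114, 0.117 and 0.121. The low-count genes had looser matches, with SULF1 nearest to MYOCD at 0.36 and SERTM2 nearest to TUBB1 at 0.652. In a table of features that all differ between the groups, such likeness is mostly the shared group difference.

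The wider cytoskeleton was examined through 13 lists of 307 genes in all, of which the table held 40 and the filter left 37. Of these 13 rose and 24 fell (edgeR quasi-likelihood test, two-sided, Benjamini-Hochberg adjusted, threshold 0.05). Over all features tested, 28.3% were called higher and 71.5% lower, so the lists' mostly lower calls are near that background, and the same shares stand behind each list below. Their median log2 fold change was -1.10, against -1.30 over all features tested. These counts hold the 6 genes chosen for their difference; without them 9 of 31 rose and 22 fell, with a median of -1.14. With TMM scaling over the table, which raised log2 fold changes by a median of 1.20, 9 of these 31 were higher and 5 lower, with a median of 0.06, and 745 against 465 in the whole table. Genes named below that lost their call or turned sign under it are marked so.

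Among 22 tubulin genes, 5 were in the table, of which 4 rose and 1 fell, with a median log2 fold change of 1.12. TUBA1B and TUBB1 are 2 of those that rose, so the count is in part set by the choice of genes. TUBB4B, a widely made beta-tubulin, rose to 19992 ± 2502 normalized counts in CYGB-OE, against 9204 ± 444 in WT (SD, n = 3 each; log2 fold change 1.12, SE 0.10). TUBA1A, an alpha-tubulin abundant in neurons, rose to 2870 ± 508 in CYGB-OE, against 1429 ± 257 in WT (log2 fold change 1.01). TUBA1A shares 100-base windows with the more abundant TUBA1B, so its counts are uncertain where reads could belong to either. TUBB2B, another neuronal beta-tubulin, fell to 157 ± 35.2 in CYGB-OE, against 403 ± 9.59 in WT (log2 fold change -1.36, call lost under TMM over the table). TUBB2BP1, a pseudogene of TUBB2B, had 1, 0 and 0 counts in CYGB-OE libraries, against 3, 20 and 3 in WT libraries. Of 6 actin isoforms the table held ACTB and ACTA2 alone, beside the pseudogene ACTG1P17. ACTG1P17 had 9, 10 and 21 counts in CYGB-OE libraries, against 28, 38 and 28 in WT libraries. Its log2 fold change of -1.16 turned to 0.04 under TMM over the table, where its call was lost (edgeR adjusted p = 0.94). None of 22 genes that fold actin and tubulin, the chaperonin subunits among them, was in the table.

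Other smooth muscle genes in the table were scarce. The table held 4 of 20 contractile genes of smooth muscle. ACTA2 and SYNPO2 passed the filter. ACTA2 was chosen for its difference, and SYNPO2 fell, a call lost under TMM over the table. SYNPO2, the actin-binding protein synaptopodin 2, had 16, 5 and 6 counts in CYGB-OE libraries, against 19, 31 and 29 in WT libraries, with a log2 fold change of -1.44, -2.18 without CYGB-OE replicate 1 and -0.25 under TMM (edgeR adjusted p = 0.712). LMOD1, the smooth muscle leiomodin, had 0 counts in each CYGB-OE library, against 15, 10 and 8 in WT libraries, and SMTNL2 had 0, 3 and 3, against 15, 11 and 12. TAGLN, CNN1, MYH11 and DES, the usual defining markers of smooth muscle, were not in the table and were not analysed here.

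Of 8 listed genes, namely SRF, its cofactors and MAMSTR, the table held MYOCD, chosen for its difference, and MAMSTR. MAMSTR, which encodes a coactivator of myogenic MEF2 factors, fell with a log2 fold change of -1.28 (SE 0.33), but had -0.09 under TMM over the table, where its call was lost (edgeR adjusted p = 0.858). Of 35 SRF targets 6 were in the table, of which 3 rose and 3 fell. Their median log2 fold change was -0.005, a value inside the empty band that no single target had. Under TMM over the table it was 1.19. Beside ACTB, those that rose were CTGF and CYR61, both matricellular proteins, with log2 fold changes of 1.20 and 1.02. Their calls were lost without CYGB-OE replicate 1, and that of CYR61 also without CYGB-OE replicate 2 or 3 or WT replicate 1 or 3. Beside ACTA2, JUNB, an AP-1 transcription factor, fell by 1.57 on the log2 scale, with -0.38 and its call lost under TMM over the table (edgeR adjusted p = 0.446), and the focal adhesion protein TGFB1I1 fell by 1.03, a change whose sign turned under TMM over the table. WT replicate 2 was the highest WT library for CTGF, CYR61 and JUNB.

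Genes of striated muscle and its motors moved both ways. The table held 4 of 31 sarcomere genes, 3 of them above the filter. MYPN, the sarcomeric protein myopalladin, rose to 145 ± 14.9 normalized counts in CYGB-OE, against 43.1 ± 10.0 in WT (log2 fold change 1.73, SE 0.22). MYOM1, the M-band protein myomesin 1, fell to 4.48 ± 3.38 in CYGB-OE, against 34.6 ± 2.66 in WT (log2 fold change -2.93). TNNT1, slow skeletal troponin T, had a log2 fold change of -1.06, which turned positive under TMM over the table. MYBPC1 had 0 counts in each CYGB-OE library, against 12, 8 and 11 in WT libraries. None of 10 myogenic factors was in the table.

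Of 17 myosin light chain and kinase genes, MYLK3 rose with a log2 fold change of 1.35 and MYLK4 fell with -1.07, the sign of MYLK4 turning under TMM over the table. Of 24 unconventional myosins, the table held MYO1D and MYO1F, both called lower. MYO1D was at 256 ± 17.1 normalized counts in CYGB-OE, against 912 ± 46.0 in WT (log2 fold change -1.83, SE 0.11). MYO1F had 10, 15 and 30 counts in CYGB-OE libraries, against 62, 62 and 23 in WT libraries, and the groups overlapped. Its log2 fold change of -1.35 lost its call without WT replicate 1 and under all 4 other scalings, with -0.15 under TMM (edgeR adjusted p = 0.82).

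Of 70 actin filament regulators 6 were in the table, of which 1 rose and 5 fell, with a median log2 fold change of -1.15. CORO2B, a coronin, rose to 999 ± 77.8 normalized counts in CYGB-OE, against 475 ± 9.10 in WT (log2 fold change 1.07). FMNL1, a formin that nucleates actin filaments, fell to 138 ± 10.1 in CYGB-OE, against 582 ± 13.4 in WT (log2 fold change -2.07, SE 0.13). LCP1, the leukocyte filament bundler L-plastin, had a log2 fold change of -2.99. COBL, a nucleator, CAPG, which caps filament ends, and SSH3, of the cofilin phosphatase family, had -1.20, -1.10 and -1.07, and the signs of all 3 turned under TMM over the table.

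Of 47 microtubule regulators 9 were in the table, of which 2 rose and 7 fell, with a median log2 fold change of -1.14. MAP1A, a microtubule-associated protein of neurons, rose to 855 ± 124 normalized counts in CYGB-OE, against 245 ± 11.7 in WT (log2 fold change 1.80, SE 0.14). DCLK2, a doublecortin-like kinase, had a log2 fold change of 1.04. TPPP, a tubulin polymerization-promoting protein, fell to 5.71 ± 1.51 in CYGB-OE, against 39.3 ± 8.79 in WT (log2 fold change -2.73). TTLL6, a tubulin glutamylase, had -1.31, VASH2, a tubulin carboxypeptidase, -1.30 and HDAC6, a tubulin deacetylase, -1.06. Under TMM over the table TTLL6 and VASH2 lost their calls, at -0.11 and -0.10 (edgeR adjusted p = 0.811 and 0.685), and HDAC6 turned positive. Adjusted over all 58735 annotated genes, as if every one had been tested, 10 of the 37 calls in these lists were lost, among them those of TTLL6, JUNB, MAMSTR, MYLK3, MYLK4, MYO1F, SYNPO2, CTGF and CYR61.

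**Figure D5:**
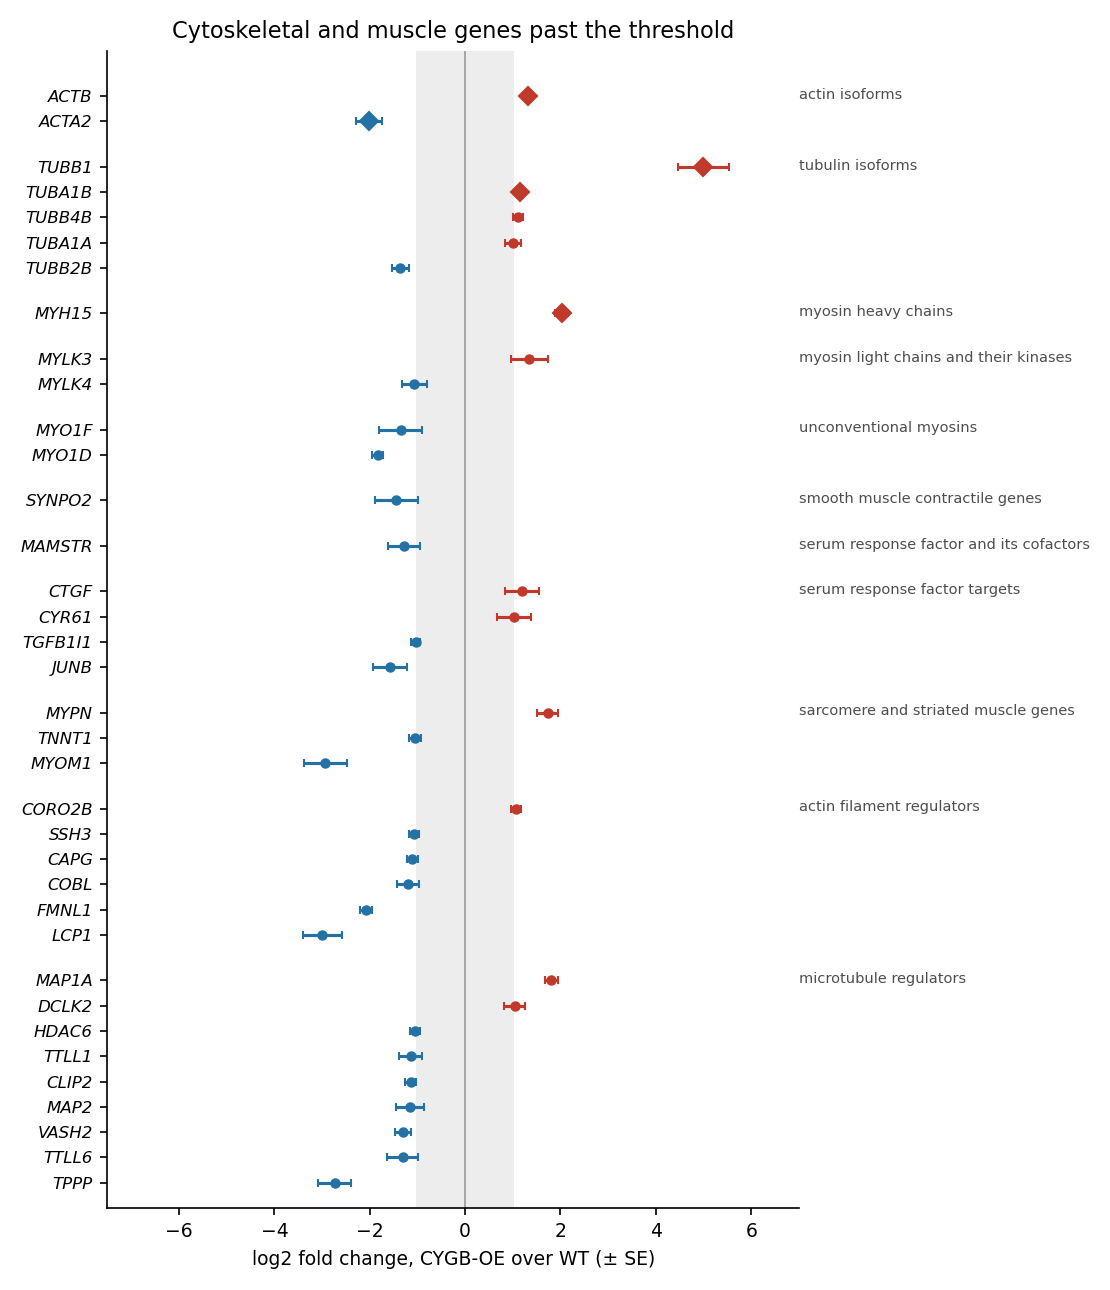
Log2 fold changes (CYGB-OE over WT, ± SE from edgeR) of the genes in the cytoskeletal and muscle lists that passed the threshold, grouped by list, each gene under its first list, with diamonds for ACTB, ACTA2, TUBB1, TUBA1B and MYH15. The shaded band spans 2-fold either way, most regulators of actin filaments and microtubules lie to its left (SSH3, CAPG, COBL, HDAC6, TTLL1, CLIP2 and MAP2 turned sign under TMM over the table), and MYOCD is left out because its value rests on 1 count in CYGB-OE.

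Markers of the cell types these genes are known from were mostly outside the table. Of 16 megakaryocyte and platelet markers and 12 skeletal and cardiac muscle markers, none was in the table. Of 8 smooth muscle markers, LMOD1 and SYNPO2 were, with a summed level of 5.45 to 17.1 normalized counts in CYGB-OE libraries and 32.4 to 39.3 in WT libraries. Of 11 fibroblast and pericyte markers 3 were in the table, and they went different ways. COL1A2 had 34, 139 and 190 counts in CYGB-OE libraries, against 0, 4 and 2 in WT libraries, and COL3A1 had 2, 26 and 22, against 1, 1 and 0. CSPG4, which melanoma cells also make, fell, with a log2 fold change of -1.88. Of 11 melanocyte markers 5 were in the table, of which 4 were tested and called lower, beside 71.5% of all features, and their summed level was 2832 to 3317 in CYGB-OE and 6825 to 7466 in WT. Under TMM over the table, as with DESeq2 size factors, all 4 calls were lost. S100A1 turned to 0.09, with RAB38 at -0.22, EDNRB at -0.30 and TYRP1 at -1.35 under TMM (edgeR adjusted p = 0.552, 0.251, 0.056 and 0.124). The part of these markers in the values of ACTA2, MYOCD, TUBB1 and MYH15 was not tested.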

How the data were processed

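The authors deposited raw counts per gene for 6 libraries, 3 of each group. Per the submitters' processing notes, Trimmomatic 0.36, STAR 2.5.2b, featureCounts and Subread 1.5.2 were used with build GRCh38. The sources used here give no annotation, strand setting or rule by which the 2778 features were selected. Identifiers were looked up in GENCODE release 29, where 2611 of 2615 Ensembl identifiers were found, and the 163 unnamed loci stayed in the fit.

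Counts were tested with edgeR 4.0.16 in R 4.3.3 (quasi-likelihood F test, robust, group only, filterByExpr with a minimum count of 10) over 2465 features. TMM factors were taken separately for the libraries of each group. The groups were then aligned on the middle of the empty band of log2 ratios, because TMM over a table of changed features assumes that most are unchanged. This step centres the selection on 0 and does not show that the selection was symmetric. When a library was left out, the factors of all 6 libraries were kept. Standard errors come from the F statistic. DESeq2 1.42.0 was an alternative. Tests were checked on simulated counts in which most features were unchanged. That differs from this table, so nothing about the calls here is drawn from that check.

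The 6 genes, the gene lists and the scaling were chosen with earlier results of these data known. Named genes are the 6, all called members of a list where at most 6 passed (otherwise the 3 highest and 3 lowest), the 3 most alike features of each member (all 3 for 4 of them, the nearest for MYOCD and TUBB1), actin or tubulin pseudogenes, features within 100 kb, and CYGB. LMOD1, SMTNL2, MYBPC1 and the marker genes were named after their values were seen. Promoters came from RefSeq (GRCh38.p14), which gave windows for 4 of the 6 genes. ACTB and MYOCD are named only. Intervals and floors cover counting error only.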

Additional observations from a re-analysis of the deposited data

How the results depend on the processing

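The directions of ACTB, TUBA1B, MYH15, ACTA2, MYOCD and TUBB1 were the same under 4 other scalings, no filter, the DESeq2 test, the replicate block and each left-out library. Scaling moved the sizes: TMM over the table gave log2 fold changes of 2.52 for ACTB, 2.34 for TUBA1B, 3.23 for MYH15, -0.81 for ACTA2 and 6.17 for TUBB1. For MYOCD it gave -4.81, against -5.84. TMM, DESeq2 size factors, upper-quartile factors and total counts raised log2 fold changes by a median of 1.20, 1.20, 0.86 and 0.34. Since these scalings all moved values upward, only the directions of ACTA2 and MYOCD could have turned under them. Lower calls over the table were then 465 under TMM, 462 under DESeq2 size factors and 887 under upper-quartile factors, against 1762, and lower calls in the lists 7, 7 and 9, against 24. Left-out libraries gave log2 fold changes of 1.27 to 1.38 for ACTB, 1.06 to 1.19 for TUBA1B, 1.89 to 2.09 for MYH15, -2.19 to -1.72 for ACTA2 and 4.45 to 5.33 for TUBB1. For MYOCD they gave -7.77 to -5.31. The difference of log2 ratios ran from -3.60 to -3.05 for ACTA2 to ACTB and from 3.09 to 4.22 for TUBB1 to TUBA1B, or 4.09 and 3.56 for that pair with pseudocounts of 0 and 1. With the replicate number as a block, 696 features were higher and 1763 lower, and log2 fold changes were 1.32 for ACTB and -2.07 for ACTA2. Deviations of same-numbered libraries from their group means had correlations of -0.012, -0.066 and 0.005. With 3 libraries per group, these values cannot show whether the numbers pair the libraries. The adjustment over all annotated genes was added after the data were seen. The low counts of MYOCD in CYGB-OE and of TUBB1 in WT limit their folds.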
